A study of Caenorhabditis elegans with 12 samples.

Results

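The comparison is the change of the bcat-1 RNAi effect between 2 ages of whole Caenorhabditis elegans: the log2 ratio of bcat-1 RNAi over control at day 2, minus the same log2 ratio at day 1. All 12 of 12 libraries of the series entered it, 3 in each of 4 groups. Every group held wild-type N2 hermaphrodites, sequenced as whole worms: L4440 at an age of 1 day, bcat-1 RNAi at 1 day, L4440 at 2 days and bcat-1 RNAi at 2 days. L4440 is the empty vector commonly used as the control food in RNAi by feeding. The labels do not say whether libraries came from separate cultures or how many worms each held, so p-values measure only the spread between these libraries. Ratios were taken within 6 pairs of neighbouring library numbers, pairs 1, 2 and 3 at day 1 and pairs 4, 5 and 6 at day 2. The pairing is assumed: the labels number the libraries but do not say that neighbours belong together. In each pair the bcat-1 library and its L4440 neighbour deviated together from their group means (correlations across genes of 0.20 to 0.72). For 11 of 12 libraries the neighbour was the best match among the libraries of the other food. Pairs 1 and 2 were hardly told apart. Their neighbours correlated at 0.23 and 0.20, and the best other matches, from 1 of these pairs to the other, reached 0.20 and 0.21. The L4440 library of pair 2 matched the bcat-1 library of pair 1 (0.210) better than its own neighbour (0.199).

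BCAT-1 is the branched-chain amino acid aminotransferase, which removes the amino group of leucine, isoleucine and valine in the first step of their breakdown. Valine and isoleucine carbon passes on to propionyl-CoA. Worms clear propionyl-CoA through a vitamin B12-dependent route or, when that route is short of B12, through the propionate shunt, a chain of acyl-CoA dehydrogenase, hydratase, hydrolase and dehydrogenase steps whose genes are induced by propionate. In RNAi by feeding, worms eat bacteria that make double-stranded RNA of the target gene, and its transcript is broken down.

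Libraries held 29291731 to 43855795 counts, and 17258721 to 43824049 without the 22 ribosomal RNA genes, which were left out. Ribosomal RNA took 41.5% of the counts of the library labelled bcat-1 day 2 replicate 3 (pair 6), 6.74% of its L4440 partner and 0.0724% to 2.49% of the other libraries. Levels are CPM, counts without those genes relative to the TMM-scaled library size. Markers of intestine (15 of 15), body wall muscle (19 of 19), neurons (20 of 20), germline (30 of 30) and oocyte and eggshell (32 of 32) passed the filter on low counts, and 6 of 60 sperm markers did. In whole worms, fewer cells of a type and less RNA per cell cannot be told apart.

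The target transcript, bcat-1 (WBGene00001149, chromosome X, 12877480 to 12880328), checks the labels; positions are those of the WBcel235 annotation. At day 1 bcat-1 stood at 191, 184 and 165 CPM in the L4440 libraries of pairs 1, 2 and 3 and at 20.5, 19.0 and 28.5 CPM in their bcat-1 partners. At day 2 bcat-1 stood at 149, 164 and 124 CPM on L4440 in pairs 4, 5 and 6 and at 14.8, 18.2 and 348 CPM on bcat-1 RNAi. In 5 of 6 pairs the target lay far below its partner, with log2 ratios of -3.33 to -2.53, and in pair 6 the library labelled bcat-1 stood above its L4440 partner (log2 ratio 1.49). The target in that library goes against its label, so each difference given below with its standard error is also given without pair 6. The fitted difference between days for bcat-1 itself was 1.11 (SE 1.17, adjusted p = 0.953) with pair 6 and -0.24 (adjusted p = 0.988) without it (edgeR's quasi-likelihood test, Benjamini-Hochberg adjustment). Within the 5 other pairs the target's ratio was similar at both ages, at -3.22, -3.28 and -2.53 at day 1 and -3.33 and -3.16 at day 2.

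More genes passed the test of bcat-1 RNAi at day 2 than at day 1, and those with the smallest p for the difference between the ages included enzymes of propionate breakdown, a folate transporter gene and a cluster of neighbouring genes on chromosome V. Of 14708 genes tested, 3 passed the adjusted threshold of 0.05 at day 1 (0.0204%; 0 higher and 3 lower) and 69 at day 2 (0.469%; 32 higher and 37 lower) in edgeR's quasi-likelihood test with a block for each pair. The difference between days itself passed in 0 genes (0%), with a smallest adjusted p of 0.136. At an unadjusted p under 0.05 there were 811 genes (5.51%), 402 higher (2.73%) and 409 lower (2.78%) at day 2, where 735.4 of 14708 are expected without any difference. limma-voom with the same blocks called 0 genes, and DESeq2 called 35, 11 higher and 24 lower. Without pair 6 edgeR called 23 of 14898 genes (0.154%), 3 higher (0.0201%) and 20 lower (0.134%). Those calls rest on the blocks for the assumed pairs: with neither the blocks nor pair 6, 0 of 14898 genes passed (356 at an unadjusted p under 0.05), and the lowest adjusted p among the 23 was 0.3002. A larger count of genes at 1 age is no test of the difference, which no gene passed in edgeR with all 6 pairs.

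The pair ratios show how the 2 ages lie to each other gene by gene. The 3 ratios of day 1 and the 3 of day 2 did not overlap in 1673 genes (11.4%), 779 of them higher at day 2 (5.30%) and 894 lower (6.08%). In 256 genes (1.74%) all 3 pairs were above 0 at day 1 and all 3 below 0 at day 2, and 180 genes (1.22%) showed the opposite. The same sign in all 6 pairs was found in 560 genes above 0 and 523 below 0. Across the 14708 genes the fitted effects of the 2 days, which share no library, had a Pearson correlation of 0.20, given as a description since genes are not independent. A single gene's 3 ratios against 3 cannot pass by an exact permutation test, whose smallest two-sided p is 0.1.

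**Figure D1:**
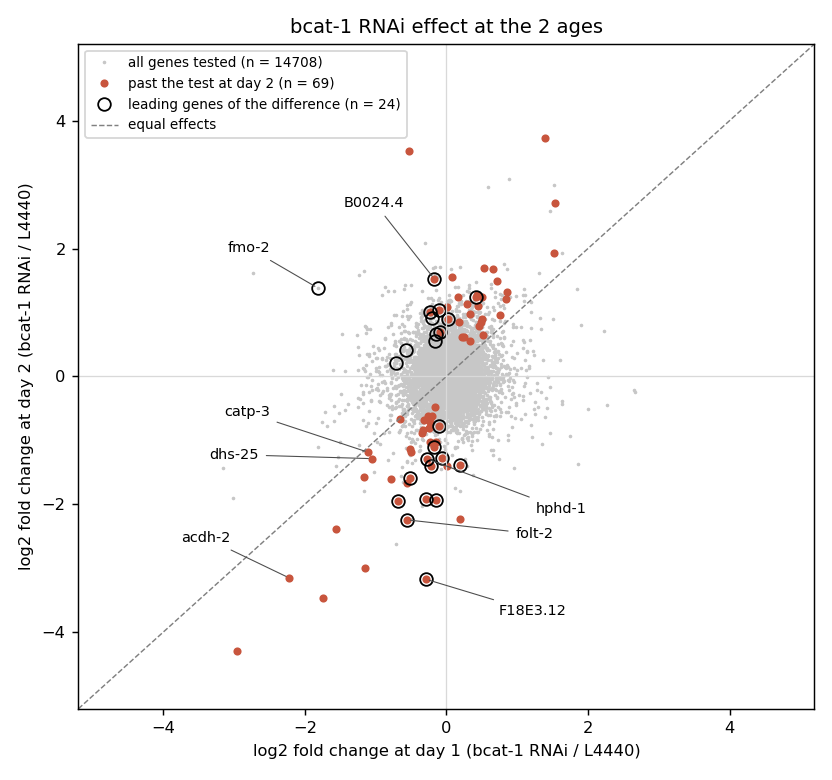
Fitted log2 fold change of bcat-1 RNAi over L4440 at day 1 (x axis) and at day 2 (y axis) for 14708 genes; red points are the 69 genes past edgeR's test at day 2, circles are the 24 leading genes of the difference, and the dashed line marks equal effects. catp-3 and dhs-25 lie near the line, while folt-2 lies at -0.56 on the x axis and -2.24 on the y axis, hphd-1 at -0.27 and -1.29, and F18E3.12 at -0.29 and -3.17.

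Leading genes are the 12 per direction with the smallest unadjusted p of the difference among genes that averaged 2 CPM or more and had ratios that did not overlap between days. That choice fixes their separation, so their values are a description. The 12 that were more negative at day 2 had differences of -2.88 to -0.67 and adjusted p of 0.136 to 0.405, and with DESeq2 all 12 passed. Each of them was also past edgeR's test at day 2, and 0 of 12 were at day 1. Without pair 6 their differences ran from -2.92 to -0.76, and 6 of 12 passed edgeR's test.

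folt-2 (WBGene00018138, chromosome V, 2872465 to 2875600) encodes a protein of the folate transporter family. At day 1 folt-2 stood at 345, 389 and 294 CPM in the L4440 libraries of pairs 1, 2 and 3 and at 221, 241 and 232 CPM in their bcat-1 partners. At day 2 folt-2 stood at 172, 240.3 and 136 CPM on L4440 in pairs 4, 5 and 6 and at 45.9, 36.0 and 32.1 CPM on bcat-1 RNAi. On L4440 the level was lower at day 2 in all 3 libraries, and on bcat-1 RNAi all 3 day 2 libraries lay below every other library. The pair ratios were -0.64, -0.69 and -0.34 at day 1 and -1.91, -2.74 and -2.08 at day 2. The difference was -1.69 (SE 0.21, adjusted p = 0.170), with a 95% interval of -2.17 to -1.20 for the single gene, and -1.76 (adjusted p = 0.0406) without pair 6. Leaving out each pair and each other alternative gave differences of -1.87 to -1.44 and adjusted p of 4.89e-09 to 0.753.

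4 enzyme genes of the propionate shunt, acdh-1, ech-6, hach-1 and hphd-1, had fitted log2 effects of bcat-1 RNAi between -0.34 (hach-1) and 0.02 (ech-6) at day 1, and between -1.29 (hphd-1) and -0.47 (ech-6) at day 2. acdh-1 (WBGene00016943, chromosome I, 6497436 to 6499560) encodes the acyl-CoA dehydrogenase of the first step, which turns propionyl-CoA into acrylyl-CoA. At day 1 acdh-1 stood at 1141, 1282 and 1277 CPM in the L4440 libraries of pairs 1, 2 and 3 and at 1076, 1169.8 and 1197 CPM in their bcat-1 partners. At day 2 acdh-1 stood at 859, 931 and 716 CPM on L4440 in pairs 4, 5 and 6 and at 509, 477 and 472 CPM on bcat-1 RNAi. The day 2 bcat-1 libraries were the 3 lowest of the 12, and at day 1 each bcat-1 library lay just below its partner, at log2 ratios of -0.09, -0.13 and -0.09. At day 2 the ratios were -0.75, -0.96 and -0.60. The difference was -0.67 (SE 0.13, adjusted p = 0.405) with all pairs and -0.76 (adjusted p = 0.0418) without pair 6.

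ech-6 (WBGene00001155, chromosome III, 9751552 to 9752883) encodes the enoyl-CoA hydratase of the next step. Its pair ratios were 0.06, -0.12 and 0.11 at day 1 and -0.49, -0.64 and -0.28 at day 2, on both sides of 0 at the first age and below 0 at the second. The difference was -0.49 (SE 0.13, adjusted p = 0.734), and -0.58 (adjusted p = 0.121) without pair 6. hach-1 (WBGene00017301, chromosome III, 5555450 to 5557318) encodes the hydroxyacyl-CoA hydrolase that follows. At day 1 hach-1 stood at 314, 379.8 and 339.9 CPM in the L4440 libraries of pairs 1, 2 and 3 and at 242, 291 and 286 CPM in their bcat-1 partners. At day 2 hach-1 stood at 206, 255 and 201 CPM on L4440 in pairs 4, 5 and 6 and at 129, 132 and 107 CPM on bcat-1 RNAi. It was lower on bcat-1 RNAi in all 6 pairs, by -0.37, -0.39 and -0.25 at day 1 and -0.67, -0.95 and -0.91 at day 2 on the log2 scale. Its difference was -0.51 (SE 0.11, adjusted p = 0.594), and -0.47 (adjusted p = 0.239) without pair 6.

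hphd-1 (WBGene00012608, chromosome II, 12994354 to 12996571) encodes the oxidoreductase that acts on the 3-hydroxypropionate made by HACH-1. At day 1 hphd-1 stood at 507, 579 and 511 CPM in the L4440 libraries of pairs 1, 2 and 3 and at 408, 460.1 and 453 CPM in their bcat-1 partners. At day 2 hphd-1 stood at 333, 389.7 and 285 CPM on L4440 in pairs 4, 5 and 6 and at 158, 132 and 122 CPM on bcat-1 RNAi. It showed the largest difference of these enzymes, with ratios of -0.31, -0.33 and -0.17 at day 1 and -1.07, -1.56 and -1.23 at day 2. The groups of ratios lay well apart, and pair 6 fell between pairs 4 and 5. The difference was -1.02 (SE 0.14, adjusted p = 0.187), and -1.04 (adjusted p = 0.0418) without pair 6. alh-8 (WBGene00000114, chromosome II, 11729055 to 11731198), the aldehyde dehydrogenase of the last step, had ratios of -0.10, -0.13 and -0.11 and -0.24, -0.36 and -0.18 and a difference of -0.15 (SE 0.11, adjusted p = 0.953, and without pair 6 -0.19, adjusted p = 0.876).

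**Figure D2:**
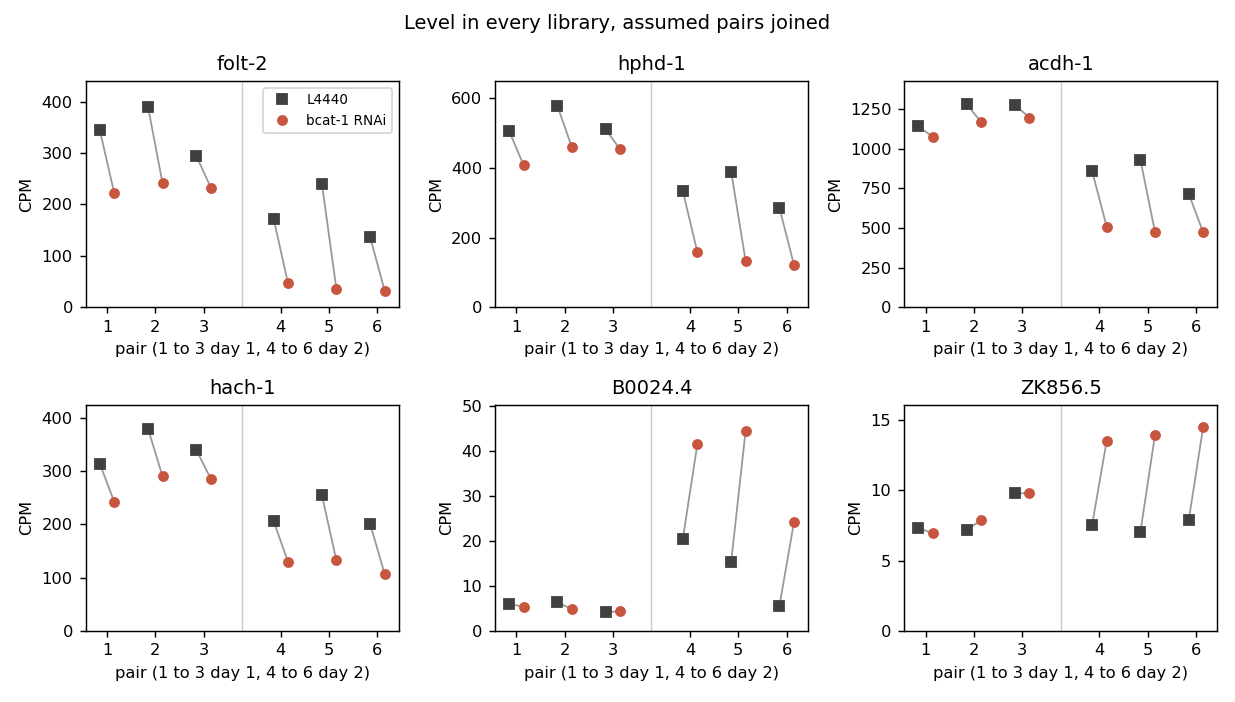
Level in CPM (y axis, from 0) of 6 genes in every library, with L4440 as squares, bcat-1 RNAi as circles and assumed pairs joined; pairs 1 to 3 are day 1 and pairs 4 to 6 day 2. In folt-2, hphd-1, acdh-1 and hach-1 the lines drop further at day 2 than at day 1, and in B0024.4 and ZK856.5 they are flat at day 1 and rise at day 2, in pair 6 as in the other pairs.

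The list of the propionate shunt held these 5 enzymes, acdh-2 and the nuclear hormone receptors nhr-10 and nhr-68, which are known to switch the shunt genes on. 7 of its 8 genes had a negative difference (nhr-68 did not), against 8151 of 14708 genes tested. 5 of the 8 were lower at an unadjusted p under 0.05, beside 2.78% of all genes, and 0 passed the adjusted test. Its median difference was -0.50, beside -0.03 over all genes, and -0.53 without pair 6. Without that pair 2 of the 8 (acdh-1 and hphd-1) passed as lower at day 2, beside 0.134% of all genes. The median of the list's pair ratios was -0.10, -0.13 and -0.10 in pairs 1 to 3 and -0.58, -0.79 and -0.60 in pairs 4 to 6. Its ratios did not overlap between days in 7 of 8 genes (beside 11.4% of all genes tested), 6 of them lower at day 2 (beside 6.08%). Earlier results of these data already showed shunt genes lower at day 2, so the count is no independent evidence of the direction.

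The B12-dependent route beside it showed no such order. Its list of 9 genes held the propionyl-CoA carboxylase genes pcca-1 and pccb-1, the mutase mmcm-1 and others. Methionine synthase metr-1 was in the list too, though it is not a step of that route. Of the 9 genes, 6 had a negative difference and 0 had an unadjusted p under 0.05. The median difference was -0.12 with all pairs and 0.002 without pair 6, where 3 of 9 were negative. pcca-1 had ratios of -0.32, 0.05 and 0.13 at day 1 and -0.13, -0.02 and -0.80 at day 2, with pair 6 the lowest of the 6. Its difference was -0.27 (SE 0.21, adjusted p = 0.953) and -0.03 (adjusted p = 0.996) without pair 6. A difference between the 2 routes was not tested.

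Of 19 genes that act in branched-chain amino acid breakdown after BCAT-1, 16 had a negative difference. 2 (hach-1 and ech-6) had an unadjusted p under 0.05, beside 2.78% of all genes lower at that threshold. The list's median difference was -0.18 with all pairs and -0.08 without pair 6. bckd-1A, a subunit of the branched-chain keto acid dehydrogenase, had a difference of -0.31 (SE 0.14, adjusted p = 0.912) and -0.18 (adjusted p = 0.962) without pair 6. ivd-1, the isovaleryl-CoA dehydrogenase of leucine breakdown, lay lower on bcat-1 RNAi in all 6 pairs, by -0.18, -0.07 and -0.13 at day 1 and -0.18, -0.31 and -0.25 at day 2. It was chosen after its values were seen, and its difference was -0.12 (SE 0.10, adjusted p = 0.953, and without pair 6 -0.12, adjusted p = 0.988).

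A relative of acdh-1, acdh-2 (chromosome II, 5544778 to 5547492; WBGene00015894), was 1 of the 3 genes past the test at day 1, and it passed at day 2 as well. At day 1 acdh-2 stood at 31.03, 43.8 and 22.5 CPM in the L4440 libraries of pairs 1, 2 and 3 and at 6.63, 8.54 and 5.41 CPM in their bcat-1 partners. At day 2 acdh-2 stood at 4.81, 7.30 and 2.64 CPM on L4440 in pairs 4, 5 and 6 and at 0.791, 0.454 and 0.432 CPM on bcat-1 RNAi. Its level on L4440 was itself lower at day 2 than at day 1 in all 3 libraries, and the bcat-1 libraries of day 2 held under 1 CPM. The ratios were -2.22, -2.35 and -2.04 at day 1 and -2.52, -3.84 and -2.46 at day 2. The difference was -0.93 (SE 0.32, adjusted p = 0.784), and -1.05 (adjusted p = 0.532) without pair 6.

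The other 2 genes past the test at both ages had nearly the same effect at each. catp-3 (WBGene00015660, chromosome V, 8076012 to 8079916), of the cation-transporting ATPase family, had ratios of -1.07, -0.98 and -1.25 at day 1 and -1.03, -1.36 and -1.18 at day 2. Its level on L4440 was 17.1 to 23.5 CPM at day 1 and 45.2 to 68.1 CPM at day 2, and bcat-1 RNAi lowered it by a like factor at both. The difference was -0.09 (SE 0.14, adjusted p = 0.953, and without pair 6 -0.09, adjusted p = 0.990), with a 95% interval of -0.40 to 0.23. dhs-25 (WBGene00000988, chromosome X, 1486532 to 1489326), a short-chain dehydrogenase, had ratios of -1.01, -1.22 and -0.92 and -1.20, -1.51 and -1.13, and a difference of -0.24 (SE 0.14, adjusted p = 0.953, and without pair 6 -0.30, adjusted p = 0.813) with an interval of -0.56 to 0.09. Both genes were named after their values were seen.

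Among the 69 genes past the test at day 2, the fitted effects of both ages shared a sign in 61, and the day 2 effect was the larger in 69. The ratios of 55 of the 69 did not overlap between days, beside 11.4% of all genes tested. The single-gene 95% interval of the difference left out 0 in 55, beside 5.51% of all genes with an unadjusted p under 0.05. Choosing genes by their effect at day 2 favours a larger effect there, so these counts are no test of age. lys-7, a lysozyme gene of the innate immune response, was among those with an interval that held 0. It was named after its values were seen, with ratios of 0.81, 0.54 and 0.93 at day 1 and 0.78, 1.21 and 0.90 at day 2 and a difference of 0.21 (SE 0.15, adjusted p = 0.953, and without pair 6 0.24, adjusted p = 0.976).

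3 of the leading genes, F18E3.11, F18E3.12 and F18E3.13, lie next to each other on chromosome V between 7413482 and 7416433, 1230 and 909 bases apart. No role is given to them here, and whether their reads could be split between like copies was not tested. At day 1 F18E3.12 stood at 4.28, 3.92 and 1.82 CPM in the L4440 libraries of pairs 1, 2 and 3 and at 3.07, 3.12 and 1.87 CPM in their bcat-1 partners. At day 2 F18E3.12 stood at 3.18, 4.17 and 2.13 CPM on L4440 in pairs 4, 5 and 6 and at 0.474, 0.311 and 0.270 CPM on bcat-1 RNAi. The 3 bcat-1 libraries of day 2 were below every other library, at under 1 CPM, and the day 1 libraries on the 2 foods overlapped. The difference was -2.88 (SE 0.31, adjusted p = 0.136), the smallest adjusted p of all genes, and -2.92 (adjusted p = 0.0300) without pair 6. F18E3.11 had ratios of -0.11, -0.21 and -0.12 and -1.52, -2.35 and -1.74, and F18E3.13 of -0.12, -0.34 and -0.41 and -1.75, -2.08 and -1.76. Their differences were -1.78 (SE 0.24, adjusted p = 0.170, and without pair 6 -1.81, adjusted p = 0.0457) and -1.64 (SE 0.20, adjusted p = 0.170, and without pair 6 -1.67, adjusted p = 0.0418), and both passed without pair 6.

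The other leading genes with a more negative effect at day 2 included an enzyme of D-amino acids. daao-1 (WBGene00022076, chromosome IV, 2614194 to 2617147), a D-amino acid oxidase, was lower on bcat-1 RNAi in all 6 pairs, by -0.53, -0.67 and -0.82 at day 1 and -1.88, -1.90 and -1.96 at day 2. Its difference was -1.27 (SE 0.18, adjusted p = 0.195), and -1.25 (adjusted p = 0.0908) without pair 6. ifc-1 (WBGene00002055, chromosome V, 2881393 to 2883753), an intermediate filament gene, starts 5792 bases after the end of folt-2 with 2 other protein-coding genes starting between them. Its ratios were -0.24, -0.19 and 0.24 and -0.99, -1.63 and -1.24, near 0 at day 1 and below 0 in all 3 pairs of day 2, with a difference of -1.21 (SE 0.21, adjusted p = 0.372, and without pair 6 -1.20, adjusted p = 0.143). ugt-6, a UDP-glucuronosyltransferase, had ratios of 0.38, -0.29 and 0.50 and -0.97, -1.57 and -1.64 and a difference of -1.58 (SE 0.29, adjusted p = 0.405, and without pair 6 -1.48, adjusted p = 0.200). B0410.3, C23H5.8 and C35A5.3, to which no role is given here, had differences of -1.19, -0.92 and -1.07.

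**Figure D3:**
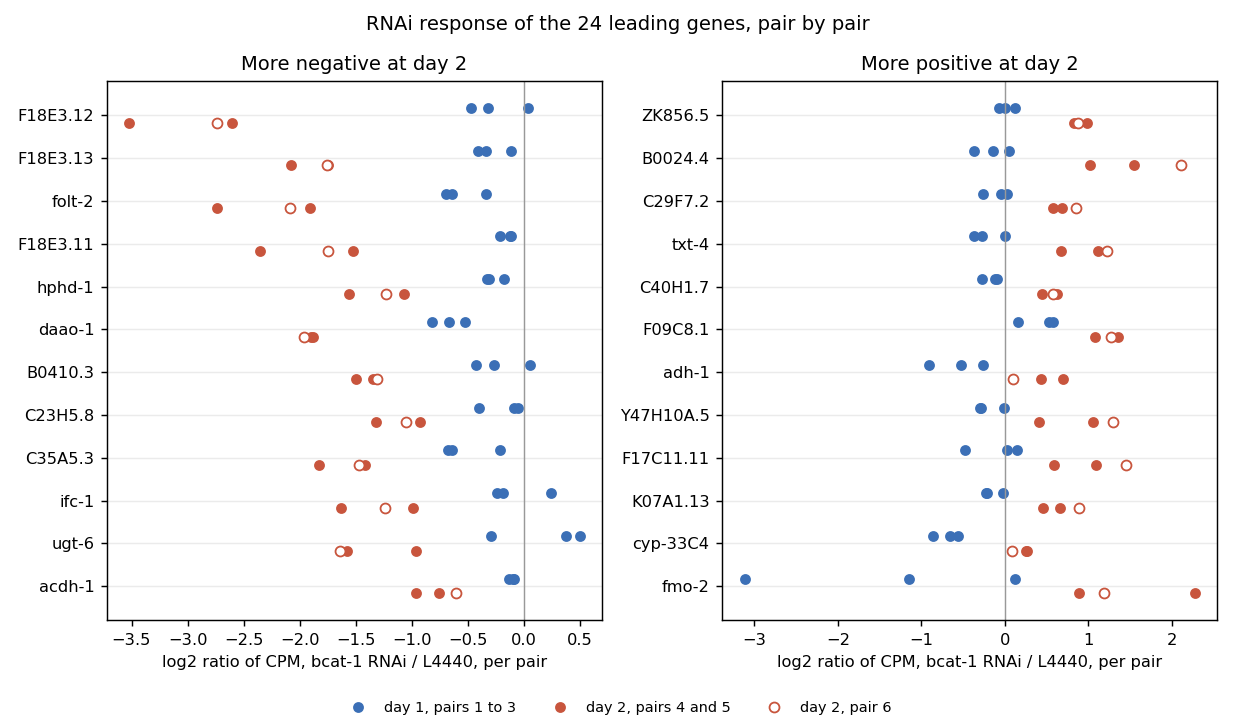
Log2 ratio of CPM on bcat-1 RNAi over L4440 in each assumed pair (x axis) for the 12 leading genes per direction (rows); blue points are day 1, filled red points pairs 4 and 5 of day 2 and open red points pair 6. The 2 ages do not overlap in any row, which the choice of genes fixes, and the open points of folt-2, hphd-1 and acdh-1 lie with the other day 2 points.

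The 12 leading genes that were more positive at day 2 had differences of 0.71 to 3.19 and adjusted p of 0.227 to 0.594, and 9 of 12 passed with DESeq2. 6 of them were past edgeR's test at day 2 and 0 at day 1. Without pair 6 their differences ran from 0.70 to 3.30, and 1 of 12 (B0024.4) passed. In 6 of 12 all pairs lay below 0 at day 1 and above 0 at day 2, and in 1 (F09C8.1) all 6 pairs lay above 0. The first pattern held in 180 of the 779 genes whose ratios were higher at day 2 without overlap. Whether the RNAi effect changed its sign was not tested.

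B0024.4 (WBGene00007097, chromosome V, 10297399 to 10298985), to which no role is given here, was near control at day 1 and higher on bcat-1 RNAi at day 2. At day 1 B0024.4 stood at 5.95, 6.32 and 4.18 CPM in the L4440 libraries of pairs 1, 2 and 3 and at 5.37, 4.86 and 4.31 CPM in their bcat-1 partners. At day 2 B0024.4 stood at 20.6, 15.3 and 5.56 CPM on L4440 in pairs 4, 5 and 6 and at 41.6, 44.6 and 24.2 CPM on bcat-1 RNAi. The control level itself was higher in 2 of 3 day 2 libraries than in any day 1 library, and each day 2 bcat-1 library lay above all 3 L4440 libraries of its age. The difference was 1.69 (SE 0.27, adjusted p = 0.261), and 1.45 (adjusted p = 0.0418) without pair 6. ZK856.5 (WBGene00014106, chromosome V, 10186011 to 10190131), likewise without a role here, had ratios of -0.07, 0.12 and -0.00 at day 1 and 0.83, 0.98 and 0.88 at day 2, while its L4440 level stayed between 7.05 and 9.82 CPM. Its difference was 0.89 (SE 0.14, adjusted p = 0.227, and without pair 6 0.89, adjusted p = 0.0908).

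adh-1 and cyp-33C4 were among the genes with all pairs below 0 at day 1 and above 0 at day 2. adh-1 (WBGene00010790, chromosome V, 11888248 to 11889650), an alcohol dehydrogenase, had ratios of -0.53, -0.27 and -0.91 at day 1 and 0.69, 0.43 and 0.10 at day 2. At day 1 adh-1 stood at 37.6, 36.4 and 106 CPM in the L4440 libraries of pairs 1, 2 and 3 and at 26.1, 30.2 and 56.3 CPM in their bcat-1 partners. At day 2 adh-1 stood at 38.0, 18.6 and 23.5 CPM on L4440 in pairs 4, 5 and 6 and at 61.5, 25.1 and 25.1 CPM on bcat-1 RNAi. 1 L4440 library of day 1 (pair 3) stood far above the others, and its ratio was the lowest of the 6. The difference was 0.99 (SE 0.20, adjusted p = 0.484, and without pair 6 1.15, adjusted p = 0.0804). cyp-33C4, a cytochrome P450 gene, had ratios of -0.57, -0.66 and -0.86 and 0.25, 0.26 and 0.09 and a difference of 0.93 (SE 0.20, adjusted p = 0.557, and without pair 6 0.97, adjusted p = 0.298), at levels of 1.53 to 3.38 CPM. fmo-2, a flavin-containing monooxygenase, had the largest difference of the 24 leading genes, 3.19 (SE 0.72, adjusted p = 0.594, and without pair 6 3.30, adjusted p = 0.228), which was 1.97 without pair 3, on ratios that spread from -3.12 to 0.12 at day 1, with 0.89 to 2.27 at day 2. The other leading genes of this direction were C29F7.2, txt-4, C40H1.7, F09C8.1, Y47H10A.5, F17C11.11 and K07A1.13, with differences between 0.71 (C40H1.7) and 1.23 (txt-4).

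Collagens of the cuticle made up 11 of the 23 genes past edgeR's test without pair 6, and 0 collagens passed with all 6 pairs. They are the main structural proteins of the cuticle that the epidermis secretes. Of 175 genes of the list 123 were tested, and 106 of the 123 had a negative difference (median -0.48, beside -0.03 over all genes; range -1.61 to 1.49). 36 had an unadjusted p under 0.05 in that direction and 2 in the other, beside 2.78% and 2.73% of all genes, and 0 passed the adjusted test. The median of their pair ratios was 0.08, 0.09 and 0.25 in pairs 1 to 3 and -0.49, -0.30 and -0.13 in pairs 4 to 6. By gene, 43, 43 and 30 of 123 lay below 0 in the pairs of day 1 and 102, 87 and 70 in those of day 2. Without pair 6, 105 of 120 genes with a value were negative (median -0.67), beside 7340 negative and 7347 positive over all genes. In that fit 11 collagen genes passed edgeR's test, all 11 lower at day 2, beside 0.134% of all genes called lower.

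The 11 collagen genes past the test without pair 6 were col-8, col-20, col-42, col-80, col-93, col-98, col-103, col-124, col-133, col-159 and col-160. Their differences ran from -1.66 to -0.81 without pair 6 (adjusted p = 0.0157 to 0.0457) and from -1.16 to -0.53 with it (adjusted p = 0.638 to 0.953). DESeq2 with all pairs called 2 of the 11, and edgeR with neither pair 6 nor the pair blocks called 0 of the 11 (lowest adjusted p = 0.650). At day 1 their ratios lay between -0.02 and 0.63, in pairs 4 and 5 between -1.54 and -0.50, and in pair 6 between -0.22 and 1.16, above 0 in 8 of 11 genes. col-159 and col-160 overlap on chromosome V, so their reads may be shared, and collagens are a family of like genes between which counting could split reads.

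col-93 (WBGene00000668, chromosome III, 10984552 to 10985609) shows the split of day 2 most plainly. At day 1 col-93 stood at 202, 301 and 151 CPM in the L4440 libraries of pairs 1, 2 and 3 and at 251, 355 and 229.7 CPM in their bcat-1 partners. At day 2 col-93 stood at 42.4, 44.1 and 43.6 CPM on L4440 in pairs 4, 5 and 6 and at 22.1, 19.1 and 96.0 CPM on bcat-1 RNAi. All 6 libraries of day 2 lay below the 6 of day 1, and among them the library labelled bcat-1 of pair 6 was the highest, above its partner. The ratios were 0.32, 0.24 and 0.61 at day 1 and -0.94, -1.20 and 1.14 at day 2. Its difference was -0.74 (SE 0.53, adjusted p = 0.953) with all pairs and -1.46 (adjusted p = 0.0157) without pair 6. col-80 (WBGene00000656, chromosome II, 10707201 to 10708287) had ratios of 0.25, 0.05 and 0.42 and -1.02, -1.54 and -0.20, below 0 in all 3 pairs of day 2. Its difference was -1.16 (SE 0.30, adjusted p = 0.661), and -1.52 (adjusted p = 0.0253) without pair 6.

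**Figure D4:**
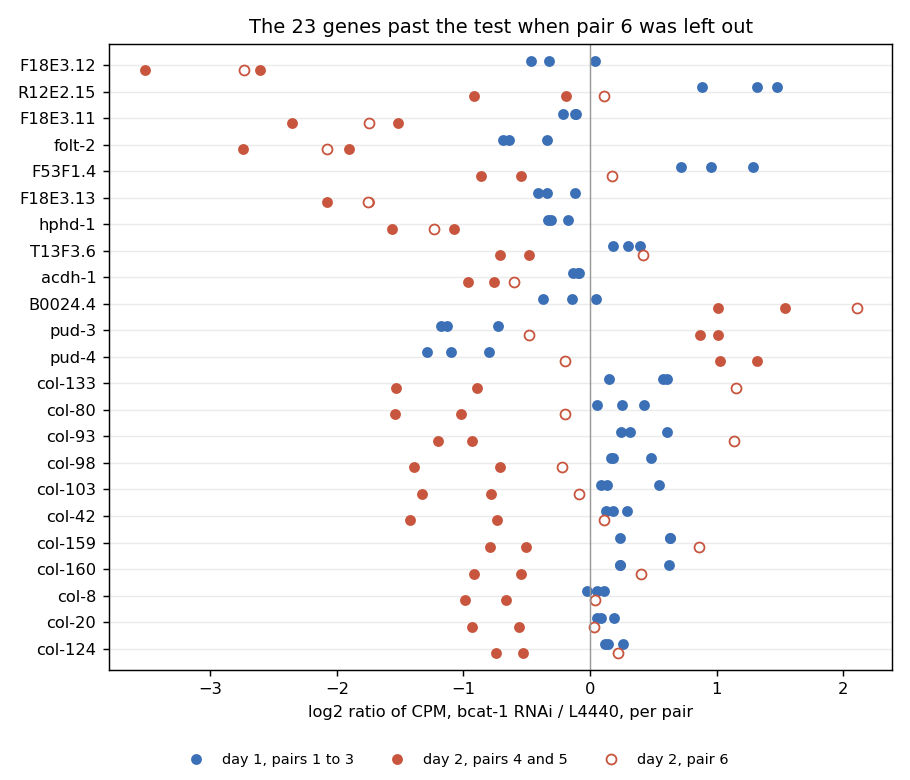
Log2 ratio of CPM on bcat-1 RNAi over L4440 per assumed pair (x axis) for the 23 genes past edgeR's test when pair 6 was left out (rows); blue points are day 1, filled red points pairs 4 and 5, open red points pair 6, which did not enter that fit. In the 11 col genes pair 6 lies between -0.22 and 1.16, apart from pairs 4 and 5, and in folt-2, hphd-1, acdh-1, B0024.4 and the F18E3 genes it lies near them or beyond.

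Summed over the 123 genes, collagen transcripts stood at day 1 at 8383, 9696 and 7603 CPM on L4440 and 9264, 10558 and 9280.0 CPM on bcat-1 RNAi. They stood at day 2 at 6190.2, 5795 and 6402 CPM on L4440 and 4762, 3929 and 7314 CPM on bcat-1 RNAi. The bcat-1 sum was above its partner in the 3 pairs of day 1, below it in pairs 4 and 5 and above it in pair 6. Epidermis and moult markers (22 of 22 tested, 19 with a negative difference, 0 past the test, median -0.23 and -0.05 without pair 6) varied between libraries too. At day 1 their summed level was 397 to 451 CPM on L4440 and 371 to 479 CPM on bcat-1 RNAi, and at day 2 it was 442 to 752 CPM and 433 to 749 CPM. At day 2 it was 752 and 749 CPM in pair 4, 442 and 446 CPM in pair 5 and 627 and 433 CPM in pair 6. Their part in the collagen values was not tested.

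Hedgehog-related and patched-related genes, which in worms are expressed in epidermis and other surface tissues, had a negative difference in 52 of 64 tested (median -0.45, and -0.34 without pair 6). 11 had an unadjusted p under 0.05 in that direction, beside 2.78% of all genes, and 0 passed the adjusted test. grl-16 had ratios of 0.34, 0.19 and 0.15 at day 1 and -0.89, -0.06 and -0.86 at day 2 and a difference of -0.91 (SE 0.29, adjusted p = 0.766, and without pair 6 -0.85, adjusted p = 0.677). grl-7 had ratios of 1.15, 0.29 and 0.16 and -0.59, -0.06 and -0.73 and a difference of -0.96 (SE 0.36, adjusted p = 0.813, and without pair 6 -0.86, adjusted p = 0.783). Both had 0.076 to 3.29 CPM at day 1 and 0.908 to 28.0 CPM at day 2, and at day 2 they were highest in both libraries of pair 4, where the epidermis and moult markers were highest. Their part was not tested here either.

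Markers of body wall muscle had small differences of one sign. All 19 of 19 markers of body wall muscle had a negative difference (median -0.21, also -0.21 without pair 6, where 18 of 19 were negative). 5 of the 19 had an unadjusted p under 0.05, beside 2.78% of all genes lower at that threshold, and 0 passed the adjusted test. The median ratio of the list was 0.07, 0.09 and 0.12 at day 1 and -0.20, -0.11 and -0.15 at day 2, above 0 in each pair of the first age and below 0 in each of the second. mup-2, troponin T, had ratios of 0.09, 0.09 and 0.26 and -0.44, -0.35 and -0.19 and a difference of -0.48 (SE 0.11, adjusted p = 0.610, and without pair 6 -0.54, adjusted p = 0.113). dim-1, a muscle protein with immunoglobulin repeats, had a difference of -0.44 (SE 0.10, adjusted p = 0.613, and without pair 6 -0.41, adjusted p = 0.278), and mlc-1, a myosin light chain, of -0.48 (SE 0.13, adjusted p = 0.703, and without pair 6 -0.43, adjusted p = 0.427). At day 1 summed muscle markers were at 4552 to 5213 CPM on L4440 and 4776 to 5613 CPM on bcat-1 RNAi, and at day 2 at 3370.5 to 4543 CPM and 3155 to 3965 CPM.

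Lists of central metabolism had mostly negative differences, of a size that depended on pair 6. All 30 of 30 genes of the TCA and glyoxylate cycles had a negative difference, with a median of -0.18 that was -0.07 without pair 6, where 24 of 30 were negative, and 0 had an unadjusted p under 0.05. Their median ratio was -0.09 and -0.10 in pairs 4 and 5 and -0.49 in pair 6. Of 21 genes of glycolysis and gluconeogenesis 19 were negative (median -0.15, and -0.11 without pair 6). 3 of them had an unadjusted p under 0.05, beside 2.78% of all genes lower at that threshold. ldh-1, lactate dehydrogenase, had ratios of 0.18, 0.11 and 0.24 at day 1 and -0.17, -0.17 and -0.02 at day 2 and a difference of -0.30 (SE 0.10, adjusted p = 0.766, and without pair 6 -0.35, adjusted p = 0.331). fbp-1, fructose-bisphosphatase, and pck-1, a phosphoenolpyruvate carboxykinase, had differences of -0.32 (SE 0.11, adjusted p = 0.783, and without pair 6 -0.27, adjusted p = 0.688) and -0.33 (SE 0.13, adjusted p = 0.851, and without pair 6 -0.40, adjusted p = 0.481).

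Of 21 vacuolar ATPase genes, whose products acidify lysosomes, 20 had a negative difference (median -0.20, and -0.19 without pair 6). 5 were lower at an unadjusted p under 0.05, beside 2.78% of all genes, and 0 passed the adjusted test. vha-12 had ratios of -0.02, 0.04 and 0.22 and -0.21, -0.20 and -0.52 and a difference of -0.39 (SE 0.13, adjusted p = 0.766, and without pair 6 -0.29, adjusted p = 0.621). vha-6, an intestinal subunit, had a difference of -0.43 (SE 0.16, adjusted p = 0.799, and without pair 6 -0.33, adjusted p = 0.783). Of 15 genes tested in the list of tyrosine and tryptophan metabolism 10 had a negative difference, with a median of -0.13 that was 0.03 without pair 3, and 0 passed the adjusted test. kynu-1, kynureninase, had ratios of -0.13, 0.07 and 0.58 and -0.49, -0.49 and -0.51 and a difference of -0.66 (SE 0.17, adjusted p = 0.703, and without pair 6 -0.66, adjusted p = 0.438), and tdo-2, tryptophan dioxygenase, had a difference of -0.65 (SE 0.20, adjusted p = 0.766, and without pair 6 -0.63, adjusted p = 0.623).

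Lipid genes went both ways. fat-7 (WBGene00001399, chromosome V, 7151353 to 7153146), a stearoyl-CoA desaturase, was above its partner in all 3 pairs of day 1 and below it in all 3 of day 2. At day 1 fat-7 stood at 53.8, 55.2 and 26.4 CPM in the L4440 libraries of pairs 1, 2 and 3 and at 71.5, 61.9 and 41.1 CPM in their bcat-1 partners. At day 2 fat-7 stood at 43.2, 47.6 and 55.3 CPM on L4440 in pairs 4, 5 and 6 and at 36.9, 35.5 and 45.2 CPM on bcat-1 RNAi. Its ratios were 0.41, 0.16 and 0.64 and -0.23, -0.42 and -0.29, its difference -0.71 (SE 0.14, adjusted p = 0.429), and -0.72 (adjusted p = 0.166) without pair 6. The fatty acid synthesis list as a whole had 13 negative and 10 positive differences (median -0.01, and -0.07 without pair 6). asah-1, an acid ceramidase, went the other way, with ratios of 0.54, 0.45 and -0.10 at day 1 and 0.97, 1.48 and 0.94 at day 2 and a difference of 0.84 (SE 0.21, adjusted p = 0.661, and without pair 6 0.93, adjusted p = 0.281). In its list, sphingolipid metabolism, 15 of 25 genes had a positive difference. 4 had an unadjusted p under 0.05, all 4 higher, beside 2.73% of all genes in that direction. The peroxisomal acyl-CoA oxidase genes acox-1.2 and acox-1.4 had differences of -0.88 (SE 0.25, adjusted p = 0.745, and without pair 6 -0.71, adjusted p = 0.602) and -0.76 (SE 0.22, adjusted p = 0.757, and without pair 6 -0.68, adjusted p = 0.591).

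Lists of regulators and of defence genes differed in their share of positive differences. Of 192 nuclear hormone receptor genes tested 123 had a positive difference (64.1%, against 44.6% of all genes), with a median of 0.09 and 0.08 without pair 6. 8 of the 192 were higher at an unadjusted p under 0.05 and 1 lower, beside 2.73% and 2.78% of all genes, with 0 past the adjusted test. nhr-168 and nhr-19 had differences of 0.56 (SE 0.16, adjusted p = 0.745, and without pair 6 0.55, adjusted p = 0.550) and 0.84 (SE 0.26, adjusted p = 0.766, and without pair 6 0.91, adjusted p = 0.527). Of 66 immune effector genes tested 45 were positive (median 0.21, and 0.07 without pair 6). spp-18, a saposin-like protein gene, was higher on bcat-1 RNAi in all 6 pairs, by 0.87, 0.81 and 0.45 at day 1 and 1.17, 1.51 and 1.81 at day 2, with a difference of 0.79 (SE 0.19, adjusted p = 0.638, and without pair 6 0.63, adjusted p = 0.374). Of 106 C-type lectin genes tested, a family that also takes part in defence, 64 had a negative difference (median -0.05, and -0.16 without pair 6). 13 were lower and 2 higher at an unadjusted p under 0.05, beside 2.78% and 2.73% of all genes. spp-23, of the same family as spp-18, went the other way, with a difference of -1.01 (SE 0.26, adjusted p = 0.726, and without pair 6 -1.20, adjusted p = 0.180).

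pud-3 and pud-4, 2 like genes that lie side by side on chromosome V and whose products are known to be abundant in daf-2 mutants, passed edgeR's test without pair 6 and DESeq2 with all pairs (adjusted p = 0.0171 and 0.0106). At day 1 pud-3 stood at 8.03, 5.34 and 5.07 CPM in the L4440 libraries of pairs 1, 2 and 3 and at 3.64, 2.33 and 3.04 CPM in their bcat-1 partners. At day 2 pud-3 stood at 30.9, 22.1 and 42.8 CPM on L4440 in pairs 4, 5 and 6 and at 56.3, 44.6 and 30.6 CPM on bcat-1 RNAi. Each L4440 library of day 2 stood above those of day 1, and the bcat-1 library was below its partner in the 3 pairs of day 1, above it in pairs 4 and 5 and below it in pair 6. The difference of pud-3 was 1.52 (SE 0.39, adjusted p = 0.680) with all pairs and 1.98 (adjusted p = 0.0103) without pair 6. For pud-4 it was 1.86 (SE 0.45, adjusted p = 0.638) and 2.29 (adjusted p = 0.0179). The 3 remaining genes past the test without pair 6, F53F1.4, R12E2.15 and T13F3.6, had differences of -1.71, -1.97 and -0.89, and in each the ratio of pair 6 lay above 0 while those of pairs 4 and 5 lay below it.

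The lists that follow are given mainly by their counts and medians. Germline markers had 20 of 30 negative differences (median -0.09, and -0.01 without pair 6) and vitellogenins 5 of 9 (median -0.04, and -0.001 without pair 6). Intestine markers had 7 of 15 (median 0.09, and 0.08 without pair 6), and their differences ran from -0.71 to 0.34. 3 of the 15 were lower and 1 higher at an unadjusted p under 0.05, beside 2.78% and 2.73% of all genes. Mitochondrial ribosomal proteins had 31 of 65 negative differences (median 0.01, and -0.02 without pair 6) and heat shock proteins and chaperones 27 of 48 (median -0.05, and 0.03 without pair 6). The 8 genes of heme transport tested had a median effect of bcat-1 RNAi above 0 at each age, 0.61 at day 1 and 0.92 at day 2. Not all of them lay higher: 3, 2 and 3 of the 8 were below 0 in pairs 1 to 3. In pairs 4 to 6, 1, 2 and 1 were below 0. The list's median difference was 0.15, which was 0.01 without pair 6. hrg-7, an aspartic protease of heme homeostasis, had ratios of 0.94, 0.86 and 1.81 and 0.72, 0.87 and 1.43 and a difference of -0.20 (SE 0.27, adjusted p = 0.953, and without pair 6 -0.40, adjusted p = 0.976). In 0 of the 48 lists described did any gene pass the adjusted test of the difference with all 6 pairs.

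**Figure D5:**
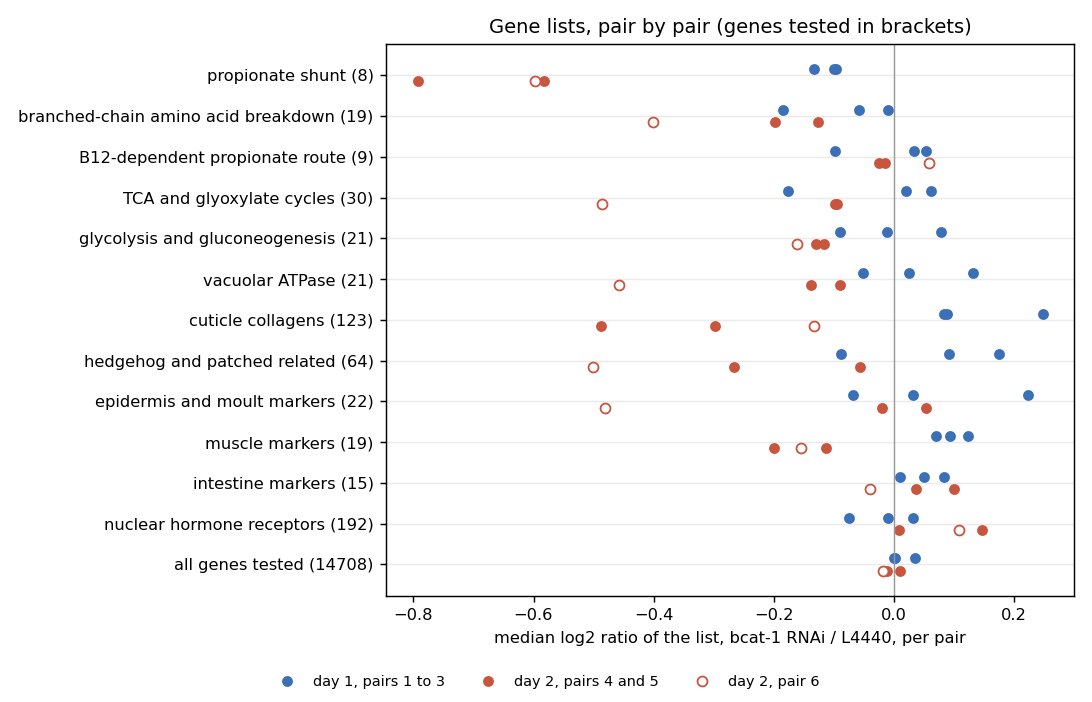
Median log2 ratio of bcat-1 RNAi over L4440 within each assumed pair (x axis) for 12 gene lists and all genes tested (rows, number of genes tested in brackets); blue points are day 1, filled red points pairs 4 and 5, open red points pair 6. The propionate shunt lies between -0.13 and -0.10 at day 1 and between -0.79 and -0.58 at day 2, and for the TCA cycle, the vacuolar ATPase and the epidermis and moult markers pair 6 lies apart from pairs 4 and 5.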

How the data were processed

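RNA of whole worms was sequenced from TruSeq RNA v2 libraries, per the labels' protocols. Per the submitters' processing notes, the tools named are bcl2fastq 1.8.4, STAR 2.4.1d and featureCounts 1.4.6-p4, with build WBcel235; the annotation release and the strand setting are not given in the sources used here. The authors deposited whole-number counts per gene for 46748 genes in 12 libraries, which gave every value here; a second deposited table was not used. Symbols and positions come from Ensembl annotation 115 (46449 genes matched).

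22 rRNA genes were removed, and 14708 genes passed filterByExpr by group in edgeR 4.0.16 (R 4.3.3). A quasi-likelihood model with TMM factors, 6 pair blocks and an RNAi effect at each day was fitted to all 12 libraries (4 residual degrees of freedom, common dispersion 0.0136; 0.0399 without blocks). Tests are two-sided F tests, with Benjamini-Hochberg adjustment across the whole table of tested genes. Pair ratios are differences of log2 CPM with a prior count of 2. The model was tested on simulated data.

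The assumed pairing was kept because every pair's neighbours deviated together (lowest correlation 0.20), although pairs 1 and 2 were hardly told apart by these correlations. The libraries, the 48 gene lists, the named-gene rule and the tests were chosen with earlier results of these data known. The rule named bcat-1, 12 genes per direction that averaged 2 CPM or more with ratios that did not overlap between days (those past the test by size, then by smallest unadjusted p), and up to 3 members per list with the smallest unadjusted p. Alternatives were upper-quartile factors, RLE factors, library size only, no filter, a stricter filter (1 CPM in 3 libraries and 50 counts), rRNA genes kept, no pair blocks, DESeq2 1.42.0, limma-voom and limma on pair ratios (limma 3.58.1), other prior counts (0.5 and 5), and leaving out each pair.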

Additional observations from a re-analysis of the deposited data

Results flagged for a closer look

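For 24 named genes all 3 pairs lay on one side of 0 at day 1 and all 3 on the other side at day 2. Genes were largely named for a small p of the difference, which favours this pattern, so the count does not measure how common it is. The difference itself was tested for each with edgeR's quasi-likelihood test, and with all 6 pairs 0 of the 24 passed after adjustment over all genes. The pattern occurs in 256 genes (1.74%) in one direction and 180 (1.22%) in the other, and groups of 3 are too small to be tested for single far samples.

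From below control at day 1 to above it at day 2, the log2 differences were 1.23 for txt-4, 0.71 for C40H1.7 and 0.99 for adh-1. In the same direction they were 1.11 for Y47H10A.5, 0.81 for K07A1.13 and 0.93 for cyp-33C4. The nuclear hormone receptor genes and a C-type lectin gene of that direction had 0.56 for nhr-168, 0.84 for nhr-19 and 0.52 for clec-54.

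From above control at day 1 to below it at day 2, collagen genes had -1.58 for col-10, -1.25 for col-144, -1.05 for col-98, -1.16 for col-80 and -0.98 for col-103. col-98, col-80 and col-103 passed without pair 6 (adjusted p = 0.0457, 0.0253 and 0.0457). Enzyme genes of proline, lactate, succinate and fatty acid metabolism had -0.33 for alh-6, -0.30 for ldh-1, -0.19 for sucl-1, -0.88 for acox-1.2 and -0.71 for fat-7. Muscle genes had -0.48 for mup-2 and -0.44 for dim-1, and the genes grl-16, grl-7 and spp-23 had -0.91, -0.96 and -1.01.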

How the results depend on the processing

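The count of genes past the test of the difference was 0 with upper-quartile factors, RLE factors, library size only, the stricter filter, rRNA genes kept, limma-voom and limma on pair ratios, and 0 with no replicate block, where 390 genes had an unadjusted p under 0.05 (811 with the blocks). It was 79 with no filter (33 higher, 46 lower, 25091 genes tested) and 35 with DESeq2. Leaving out each pair gave 0 to 23, and the 23 came from leaving out pair 6. With no replicate block and without pair 6 it was 0, and 0 of the 23 and 0 of the 24 leading genes passed. For day 1 (3 genes) the count was 48 with no filter, 27 with DESeq2, 0 with no replicate block, 1 with no replicate block and without pair 6, and 0 to 19 with each pair left out; the 3 calls ended without pair 1, 2 or 3. For day 2 (69 genes) it was 430 with no filter, 243 with DESeq2, 29 with no replicate block and without pair 6, and 17 to 97 with each pair left out, lowest without pair 5. With no replicate block it was 59, of which 45 were among the 69. The cause of these moves was not tested. Prior counts of 0.5 and 5 gave 1663 and 1692 genes with ratios that did not overlap, beside 1673.

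Signs turned in 7 named genes with small or pair 6-dependent differences. With each pair left out bcat-1 ran from -0.24 to 2.20, ins-17 from -0.25 to 0.30, spe-41 from -0.045 to 0.52, ssp-37 from -0.24 to 0.40, daf-28 from -0.50 to 0.12, catp-3 from -0.18 to 0.0078 and hrg-7 from -0.40 to 0.10. With no replicate block and without pair 6 the values were -0.25 for bcat-1, -0.24 for ins-17, -0.043 for spe-41 and -0.16 for ssp-37. The 24 leading genes kept their sign in each alternative, and 12 and 9 of them (lower and higher) passed with no filter, as with DESeq2. With library size only the median difference of all genes was 0.03 in place of -0.03. The library whose bcat-1 transcript level goes against its label also held the fewest counts without rRNA genes, 17258721. Whether that library is mislabelled was not tested. The smallest difference that this depth and number of pairs could show was not estimated.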

Other observations

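Among genes past edgeR's test at day 2 that were chosen here after their values were seen, catp-2, of the cation-transporting ATPase family like catp-3, had the largest difference. At day 1 catp-2 stood at 0.0507, 0.0233 and 0.0663 CPM in the L4440 libraries of pairs 1, 2 and 3 and at 0.0267, 0.0306 and 0.0353 CPM in their bcat-1 partners. At day 2 catp-2 stood at 0.0943, 0.0948 and 0.0722 CPM on L4440 in pairs 4, 5 and 6 and at 0.870, 1.63 and 0.703 CPM on bcat-1 RNAi. All 9 other libraries stood below the 3 bcat-1 libraries of day 2. The difference was 4.05 (SE 0.87, adjusted p = 0.518), at levels under 2 CPM in every library, and 4.14 (adjusted p = 0.2995) without pair 6. parg-2, a poly(ADP-ribose) glycohydrolase gene, was near control at day 1 with ratios of 0.07, 0.13 and 0.02 and higher on bcat-1 RNAi at day 2 with ratios of 1.45, 1.72 and 1.15, and its difference was 1.48 (SE 0.29, adjusted p = 0.429, and without pair 6 1.58, adjusted p = 0.166).

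acs-2, an acyl-CoA synthetase gene of fat breakdown, was lower on bcat-1 RNAi in all 6 pairs. At day 1 acs-2 stood at 117, 104 and 140.0 CPM in the L4440 libraries of pairs 1, 2 and 3 and at 28.0, 34.8 and 47.2 CPM in their bcat-1 partners. At day 2 acs-2 stood at 71.0, 63.9 and 38.1 CPM on L4440 in pairs 4, 5 and 6 and at 15.3, 2.63 and 2.32 CPM on bcat-1 RNAi. The ratios were -2.07, -1.58 and -1.57 at day 1 and -2.21, -4.57 and -4.0001 at day 2, and the difference was -1.73 (SE 0.52, adjusted p = 0.766, and without pair 6 -1.46, adjusted p = 0.639). icl-1, which encodes the glyoxylate cycle enzymes, was lower in all 6 pairs as well, with ratios of -1.35, -0.86 and -1.27 and -0.92, -1.75 and -2.05 that overlapped, and a difference of -0.41 (SE 0.27, adjusted p = 0.953, and without pair 6 -0.17, adjusted p = 0.988).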
